A study of Zea mays with 18 samples.

Results

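A set of 63 genes whose transcripts were low in iron-deficient maize shoots, and near the iron-sufficient level 1 day after iron was returned, was described in RNA-seq libraries of the maize inbred W22. The 63 were found among 40690 genes by a rule on CPM, counts brought to a common library size, after scaling with the trimmed mean of M values (TMM) over all 18 libraries. The rule asked that the mean of the sufficient shoots, and that of the resupplied shoots, each be at least 1.5 times the mean of the deficient shoots, after 0.1 CPM was added to every mean. It also asked that resupplied and sufficient means lie within 1.5-fold of each other, that the sufficient mean be at least 5 CPM, and that every deficient shoot library lie below all 6 other shoot libraries. The shoot mean had to exceed the root mean, and the deficient root mean, divided by the sufficient root mean, had to stay above 1/1.3. A last step, which takes out genes of at least 100 CPM in every shoot library with a root median of at most 0.5 CPM, removed none. The members were thus chosen on the values of all 9 shoot libraries and, through the root mean and the ratio of deficient to sufficient roots, on those of all 9 root libraries. The shoot values and the deficient to sufficient ratio in roots are therefore a description and not a test.

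The libraries come from wild-type W22 plants, an inbred line, kept for 12 days in hydroponic culture and then for 3 days with or without iron. Resupplied plants were deprived plants that then received 0.1 mM FeSO4-EDTA; deficient plants received fresh iron-free solution and sufficient plants fresh solution with iron. Roots and shoots were frozen separately 24 hours later, with 3 biological replicates of each organ in each of the resupplied, deficient and sufficient groups. No library was taken just before resupply, so a level regained and a level that had not yet fallen cannot be told apart. The labels do not say how many plants a replicate holds, so p-values measure the spread between these samples. Shoot libraries held 69390438 to 84318039 estimated counts and root libraries 63058129 to 78431980. Every library had a higher mean correlation with its own group than with the other groups of its organ pooled. In sufficient shoot library 2 these means were close, at 0.9784 and 0.9773, and the other groups were not compared singly. The organ labels could not be checked against marker genes, because the identifiers in the files are not paired with names.

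Iron is needed in leaves for chlorophyll synthesis, for the iron-sulfur clusters and haems of photosynthetic and respiratory electron transport, and for the storage protein ferritin. Grasses such as maize take iron up by releasing phytosiderophores from their roots and importing the iron-phytosiderophore complex. Which of these roles, if any, a given member has is not known here. None of the identifiers occurs in the gene table used, which lists 49888 genes of the inbred B73, so the members go by identifier alone.

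The members were a moderate response that ran through genes of very different abundance. Their mean level in resupplied shoots ran from 5.26 to 798 CPM with a median of 23.6 CPM. In deficient shoots it ran from 1.00 to 448 CPM with a median of 13.4 CPM, and in sufficient shoots from 5.09 to 972 CPM with a median of 23.9 CPM. The median member thus stood at 56.0% of its sufficient level in deficient shoots, and the lowest at 17.8%. No member was among the 100 most abundant genes of sufficient shoots and 8 were among the first 1000. At least 100 CPM in sufficient shoots was found for 9 members, or 14.3%, against 14.5% of the 10124 genes that have at least 5 CPM there and a higher mean in shoots than in roots. Under 10 CPM were 17.5% of members, against 15.2% of those genes.

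**Figure D1:**
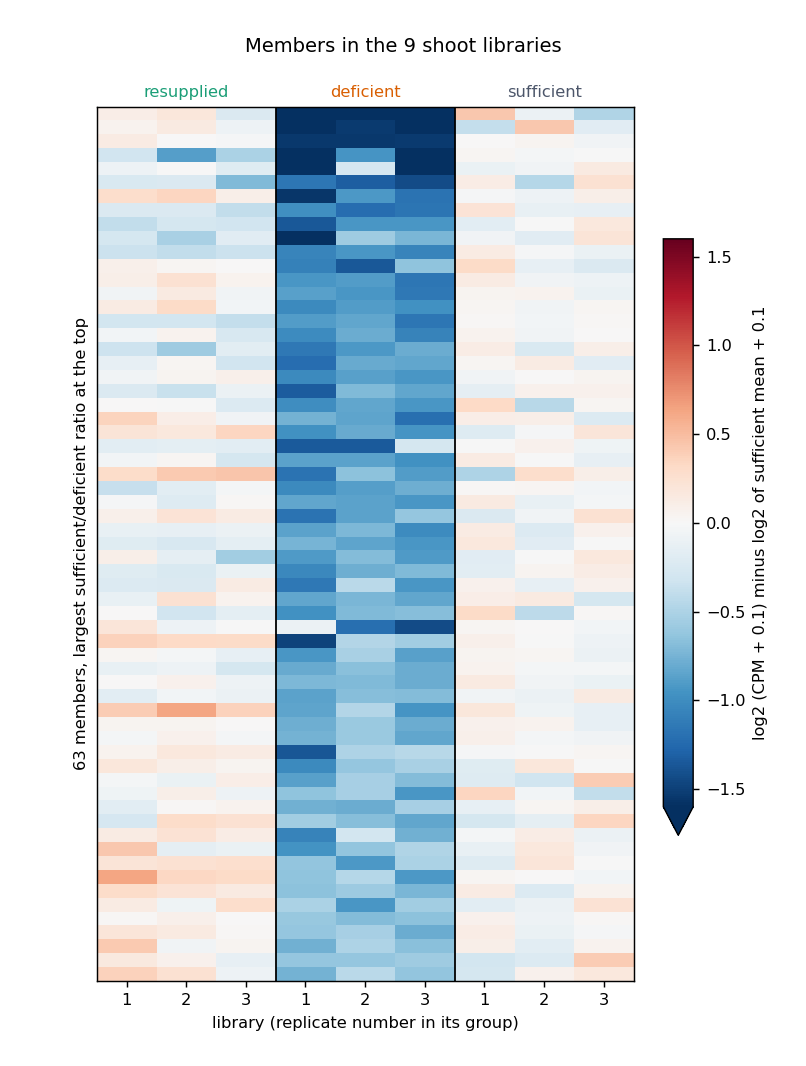
Level of the 63 members (rows, ordered by the ratio of sufficient to deficient shoots) in the 9 shoot libraries (columns), as log2 of CPM + 0.1 minus log2 of the member's sufficient mean + 0.1; the scale ends at -1.6 and lower values have its darkest blue. The resupplied and sufficient columns are pale and the deficient columns mostly blue, which the rule fixes, with a nearly white cell for Zm00004b035670 in deficient library 1. In 33 rows the lowest library is deficient library 1.

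Summed over members, the set held 0.486 to 0.517% of all counts in resupplied shoots, 0.290 to 0.315% in deficient shoots and 0.483 to 0.506% in sufficient shoots. The means were 0.5002 ± 0.0155% in resupplied, 0.301 ± 0.0131% in deficient and 0.498 ± 0.0127% in sufficient shoots (SD, n = 3 each). On the TMM scale the sums were 5569 ± 220 CPM in resupplied shoots, 3184 ± 167 CPM in deficient shoots and 5955 ± 233 CPM in sufficient shoots. The deficient sum was therefore 60.4% of the sufficient one as a share of counts and 53.5% of it on the TMM scale. These are whole shoots, in which fewer cells of a type and less RNA per cell cannot be told apart. The 3 deficient libraries were not equally low: the lowest of the 9 shoot libraries was deficient library 1 for 33 members, library 3 for 22 and library 2 for 8.

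The choice of scale bears on how many genes meet the rule. With total counts in place of TMM, the median log2 change of all tested genes between deficient and sufficient shoots moved by 0.175, and 23 genes met the rule, all of them among the 63. With the median-of-ratios scaling of DESeq2, 70 genes met it, including all 63. Directions below are relative to the TMM scale.

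The 2 most abundant members had ratios of sufficient to deficient shoots of 2.17 and 2.09, above the median of 1.79 over the 63. Zm00004b013954 was at 826, 830 and 738 CPM in resupplied shoots, 493, 418 and 433 CPM in deficient shoots and 1128, 898 and 890 CPM in sufficient shoots. All 3 resupplied libraries were below all 3 sufficient ones, at 0.82 of the sufficient mean, a difference that edgeR did not call. In the authors' deposited table the gene is lower in resupplied shoots, with an adjusted p of 0.0205 (DESeq2). Zm00004b024487 was at 703, 760 and 752 CPM in resupplied shoots, 363, 485 and 486 CPM in deficient shoots and 821, 921 and 1039 CPM in sufficient shoots. Here too no resupplied library reached the sufficient range, and edgeR did not call the difference. The authors' deposited table again gives a lower level, with an adjusted p of 0.0023 (DESeq2). Both are abundant in roots as well, with means of 249 and 310 CPM over the 9 root libraries. Zm00004b013954 was at 273, 273 and 253 CPM in resupplied roots, 218, 219 and 193 CPM in deficient roots and 201, 310 and 305 CPM in sufficient roots. Between resupplied and deficient roots edgeR did not call it (edgeR adjusted p = 0.183). The authors' deposited table has it higher in resupplied roots, with an adjusted p of 0.00019 (DESeq2). Over the 9 members of at least 100 CPM in sufficient shoots, the median ratio of sufficient to deficient shoots was 1.93, against 1.78 for the 43 members of 10 to 100 CPM and 1.75 for the 11 below 10 CPM.

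The steepest swings belonged to rare transcripts. Zm00004b003469 was at 6.62, 6.94 and 5.18 CPM in resupplied shoots, 0.483, 1.62 and 0.912 CPM in deficient shoots and 8.30, 5.71 and 4.35 CPM in sufficient shoots. No root library had a count of it, and its resupplied mean was 5.74 times, its sufficient mean 5.63 times, the deficient mean. Its lowest library value rests on 37 estimated counts. Zm00004b015702 was at 5.31, 5.65 and 4.82 CPM in resupplied shoots, 1.42, 1.70 and 1.53 CPM in deficient shoots and 3.88, 6.92 and 4.48 CPM in sufficient shoots, and the resupplied libraries lie within the range of the sufficient ones.

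Only 5 of the 63 kept both ratios at 2 or more: Zm00004b003469, Zm00004b015702, Zm00004b003026, Zm00004b019426 and Zm00004b037003, the last 3 named here after their values were seen. Zm00004b003026 was at 7.09, 6.45 and 6.34 CPM in resupplied shoots, 2.15, 2.15 and 2.17 CPM in deficient shoots and 6.48, 6.67 and 6.198 CPM in sufficient shoots. Its lowest resupplied or sufficient library was 2.86 times its highest deficient one, the widest gap of the set. Zm00004b019426 was at 62.2, 65.2 and 54.6 CPM in resupplied shoots, 17.3, 27.02 and 22.5 CPM in deficient shoots and 50.7, 48.6 and 54.6 CPM in sufficient shoots. In roots no library had more than 1.496 CPM of it. Its number lies 2 after that of another member, Zm00004b019424, which had 15.7, 15.2 and 14.9 CPM in resupplied shoots, 6.95, 5.72 and 9.47 CPM in deficient shoots and 18.4, 13.6 and 12.6 CPM in sufficient shoots. This is the closest pair of numbers among the members, and whether the genes are neighbours was not tested.

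**Figure D2:**
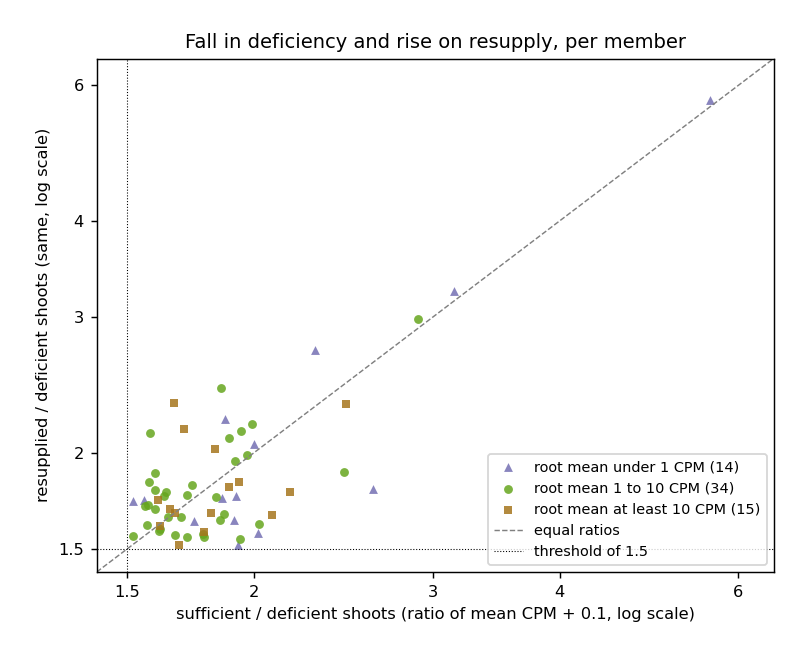
Ratio of sufficient to deficient shoots (x axis) against the ratio of resupplied to deficient shoots (y axis) for each of the 63 members, both of mean CPM + 0.1 and on log scales, with symbols for the root level. Most members lie between the threshold of 1.5 and a ratio of 2 on both axes, and the point farthest out is Zm00004b003469 at 5.63 and 5.74.

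Zm00004b037003 needs to be read apart from the rest, because its level took either a high or a low value in every organ and group. In shoots it was at 59.2, 62.7 and 54.9 CPM in resupplied plants, 12.2, 52.2 and 11.8 CPM in deficient plants and 58.3, 60.5 and 69.4 CPM in sufficient plants. In roots it was at 52.3, 13.8 and 13.5 CPM in resupplied plants, 55.2, 12.9 and 11.1 CPM in deficient plants and 14.96, 17.1 and 47.1 CPM in sufficient plants. Deficient shoot library 2 was therefore close to the sufficient shoots, and the low value occurred in all 3 root groups. In the authors' deposited table its log2 change between deficient and sufficient shoots is -0.24, with an adjusted p of 0.045 (DESeq2). With the deposited counts edgeR gave -1.31, which it did not call (edgeR adjusted p = 0.109). The 2 fits are not on the same scale: the median log2 change of the 63 members is -0.72 in the authors' table and -0.85 with edgeR. Without deficient shoot library 1, 2 or 3 it gave -0.97, -2.39 and -0.96, and of these it called only the fit without library 2.

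Zm00004b035670, a member of lower level, behaved likewise. It was at 14.8, 12.3 and 12.9 CPM in resupplied shoots, 12.2, 5.59 and 4.76 CPM in deficient shoots and 13.3, 13.1 and 12.7 CPM in sufficient shoots. In roots single libraries of each group stood high, at 15.7 CPM in resupplied library 1, 16.7 CPM in deficient library 3 and 17.5 CPM in sufficient library 2, and the other 6 were between 5.13 and 7.26 CPM. It has the smallest margin of the set: its lowest resupplied or sufficient shoot library was 1.01 times its highest deficient one. In the authors' deposited table its log2 change between deficient and sufficient shoots is 0.02. Single deficient shoot libraries stood apart in other members too. Zm00004b022626 was at 18.9, 18.95 and 39.7 CPM in deficient shoots and Zm00004b025279 at 3.41, 11.6 and 10.35 CPM, with margins of 1.08 and 1.03 times. Of the 2 comparisons with deficient shoots, edgeR called the first gene only against sufficient shoots and the second in neither. For deficient against sufficient and resupplied against deficient shoots, edgeR gave the first gene log2 changes of -0.90 and 0.74. The authors' deposited tables give it -0.28 and 0.09, with adjusted p of 0.012 and 0.49 (DESeq2). For the second gene these changes were -1.03 and 0.70 with edgeR and -0.40 and 0.28 in the authors' tables. All these genes were picked out after their values were seen.

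The resupplied level relative to the sufficient one was centred on 1. The median ratio of resupplied to sufficient shoots was 1.01, with quartiles of 0.910 and 1.09. The resupplied mean was above the sufficient mean for 33 members and below it for 30, and for 35 it was within 10% of it. The rule bounds this ratio, and the extremes were 0.686 and 1.39. All 3 resupplied libraries lay above all 3 sufficient ones for 9 members, or 14.3%, and below them for 8, or 12.7%; over all genes with a shoot mean of at least 1 CPM these shares were 14.3% and 16%.

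Zm00004b003953 stood furthest above its sufficient level in resupplied shoots. It was at 63.7, 74.3 and 61.8 CPM in resupplied shoots, 26.6, 34.5 and 24.9 CPM in deficient shoots and 54.1, 45.7 and 43.7 CPM in sufficient shoots. Zm00004b022422 did likewise at a lower level, with 27.6, 22.4 and 21.98 CPM in resupplied shoots, 11.4, 13 and 9.40 CPM in deficient shoots and 18.2, 17.96 and 17.2 CPM in sufficient shoots. For both genes the resupplied and sufficient libraries do not overlap.

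At the other end, Zm00004b009080 was at 6.69, 4.47 and 5.81 CPM in resupplied shoots, 2.46, 4.25 and 2.61 CPM in deficient shoots and 8.49, 8.12 and 8.27 CPM in sufficient shoots. Resupplied library 2 was hardly above deficient library 2. Zm00004b017890 was at 20.7, 20.8 and 14.9 CPM in resupplied shoots, 10.98, 9.79 and 9.02 CPM in deficient shoots and 26.6, 17.8 and 29.1 CPM in sufficient shoots, and its resupplied libraries overlap with sufficient library 2.

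Most members were also called by a test across all genes, which the rule makes likely. With edgeR's quasi-likelihood F-test and a Benjamini-Hochberg adjusted p under 0.05, 57 of the 63 were lower in deficient than in sufficient shoots, where 4.44% of the 26318 genes tested were, and 5.7% were called in either direction. On resupply against deficiency 58 were higher, where 4.86% of all genes were higher, 3.72% lower and 8.58% either, and 56 were called in both comparisons. The comparisons share the deficient libraries. The median log2 fold change of the members was -0.85 in deficient against sufficient shoots and 0.81 in resupplied against deficient shoots, where the medians of all genes tested were 0.01 and 0.00. The rule keeps resupplied and sufficient means within 1.5-fold, which limits calls between those groups. Between resupplied and sufficient shoots 3 members were called, or 4.76%, where 9.51% of all genes were: Zm00004b003953 was higher, where 4.05% of all genes were, and Zm00004b003099 and Zm00004b005052 were lower, where 5.47% were. That count was 0 without resupplied shoot library 1, 2 or 3, 1 without sufficient library 1 or 3 and 5 without deficient library 1. With total-count scaling it was also 3, but all 3 were then higher in resupplied shoots and neither of the lower genes was called.

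Of those 2 lower genes, Zm00004b003099 was at 249, 249 and 234 CPM in resupplied shoots, 164, 172 and 138 CPM in deficient shoots and 311, 298 and 310 CPM in sufficient shoots. Zm00004b005052 was at 32.8, 31.5 and 32.8 CPM in resupplied shoots, 19.95, 21.7 and 19.96 CPM in deficient shoots and 45.4, 40.9 and 38.5 CPM in sufficient shoots. In each, the 3 groups formed 3 separate steps, with the resupplied libraries between the others.

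In the authors' deposited tables, 58 of the 63 are lower in deficient than in sufficient shoots and 59 are higher in resupplied than in deficient shoots at an adjusted p under 0.05, where 7.75% and 8.97% of all genes with an adjusted p are. Between resupplied and sufficient shoots 3 are higher and 5 lower there, where 7.58% and 8.94% of all genes are. In deficient against sufficient roots 0 are higher and 1 lower, where 4.14% and 2.61% of all genes are. In resupplied against deficient roots 5 are higher and 1 lower, where 5.33% and 4.71% are. Against sufficient roots 2 are higher and 0 lower, where 1.97% and 0.832% are. All these tables come from the same libraries. The members whose log2 change between deficient and sufficient shoots is above 0 in the authors' deposited table are Zm00004b035670 and Zm00004b035905, both named for that reason. Zm00004b035905 has a log2 change of 0.06 there, while its deposited counts gave 24.8, 16.7 and 17.02 CPM in resupplied shoots, 9.47, 11.9 and 13.1 CPM in deficient shoots and 16.97, 20.6 and 17.6 CPM in sufficient shoots.

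Each shoot library was also left out in turn, the rule was applied to the other 17, and the left-out library was then read. It is read against libraries that the rule chose to be high or low in those genes, so the shares that follow are partly set by the choice, and those of other genes are not what no change would give. They are a description of single libraries and not a test. Without deficient library 1, 2 or 3, 64, 92 and 68 genes met the rule, and in 60, 83 and 64 of them the left-out library was below every resupplied and sufficient library. That is 93.8, 90.2 and 94.1%, against 20.2, 20 and 20.8% of the genes with at least 5 CPM in sufficient shoots and a higher mean in shoots than in roots. Without resupplied library 1, 2 or 3, 63, 65 and 72 genes met the rule, and the left-out library was above every deficient library in 63, 65 and 71 of them. For sufficient library 1, 2 and 3 this held for 65 of 69, 67 of 68 and 63 of 64 genes. Among the genes of that level the shares were 37.3 to 39.1% for resupplied and 36.9 to 40.5% for sufficient libraries. The median log2 ratio of the left-out deficient library to the mean of the resupplied and sufficient libraries was -0.80, -0.63 and -0.77. Library 2, the highest of the deficient libraries for the summed level, gave the smallest of these. Leaving out other libraries does not make the lists independent: without a deficient library, 48 to 60 of the genes chosen were among the 63.

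The members near the thresholds were close to genes outside them. The member with the smallest ratio of sufficient to deficient shoots had 1.518, and of the 39 genes that failed on this criterion alone the nearest had 1.499. For resupplied against deficient shoots these values were 1.516 and 1.498, with 69 genes failing on it alone. With both fold thresholds at 1.3, 248 genes met the rule, and with both at 2, 5 did.

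In roots the members covered the whole range from no counts to abundant. Their root mean was under 1 CPM for 14 members, 1 to 10 CPM for 34 and at least 10 CPM for 15. The median ratio of shoot to root mean was 4.99, from 1.02 to 110, the highest being that of Zm00004b005052. A shoot mean at least 8 times the root mean was found for 25 members, or 39.7%, against 17.5% of the genes with at least 5 CPM in sufficient shoots and a higher mean in shoots. These shares were not tested against each other. The genes of the second share did not have to meet the bound on the root ratio, which a gene with no root counts always meets. The 2 shares are therefore not of like sets. Members with the lowest root level had a median ratio of sufficient to deficient shoots of 1.92, those of 1 to 10 CPM in roots 1.72 and those above 1.78.

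**Figure D3:**
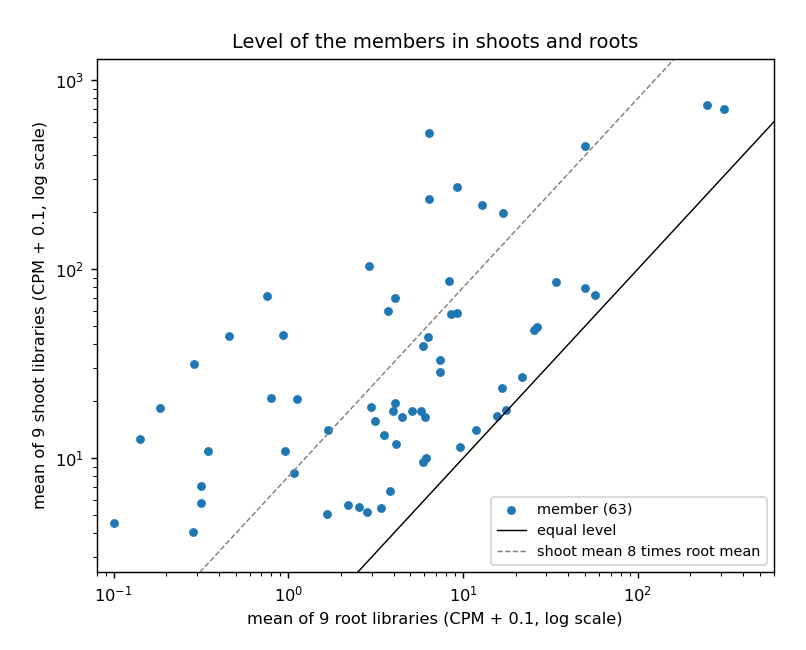
Mean level of each of the 63 members over the 9 root libraries (x axis) and the 9 shoot libraries (y axis), as CPM + 0.1 on log scales. Every point lies above the line of equal level, as the rule asks, and 25 reach or pass the dashed line at 8 times the root level.

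The members' summed root level did not separate the groups. Summed over members, roots held 1115 ± 175 CPM in resupplied, 1014 ± 75.1 CPM in deficient and 1130 ± 167 CPM in sufficient plants (SD, n = 3 each), and the groups overlap. Zm00004b024487 and Zm00004b013954, with root means of 310 and 249 CPM, weigh most in these sums. Without the 10 members most abundant in sufficient shoots the sums were 423 ± 30.4, 394 ± 31.3 and 428 ± 52.0 CPM in the same order, and the groups overlap as well. Of the 63, 61 passed the filter on low counts in roots, where the exceptions were Zm00004b003469 and Zm00004b019424. Against sufficient roots, 0 of the 61 were called in deficient roots by edgeR, where 2.08% of the 26577 genes tested were higher and 0.801% lower, 2.89% in all. Without sufficient root library 1 the count was 1. At an unadjusted p under 0.05 there were 4 higher and 4 lower, where 7.78% of all genes were higher and 7.66% lower. DESeq2 called 1, where it called 5.82% of the genes it tested. The rule removed genes whose deficient root mean was at or below 1/1.3 of the sufficient one, so this comparison is bounded from below by the choice of members. The highest log2 fold change among members of at least 1 CPM in roots was that of Zm00004b038055, the gene that DESeq2 called, at 2.35, 2.80 and 1.71 CPM in deficient roots and 0.732, 1.10 and 1.20 CPM in sufficient roots. Its log2 fold change was 1.15 ± 0.33 (SE) with no overlap. In 3 of the 49 members of at least 1 CPM in roots every deficient library was above every sufficient one, and in 4 below, or 6.12 and 8.16%, where 12.2% and 8.95% of all genes of that level were. In the downward direction the largest change, also not called, was -0.41 ± 0.29 in Zm00004b006582, at 2.57, 3.90 and 2.43 CPM in deficient roots and 4.51, 4.09 and 3.02 CPM in sufficient roots.

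**Figure D4:**
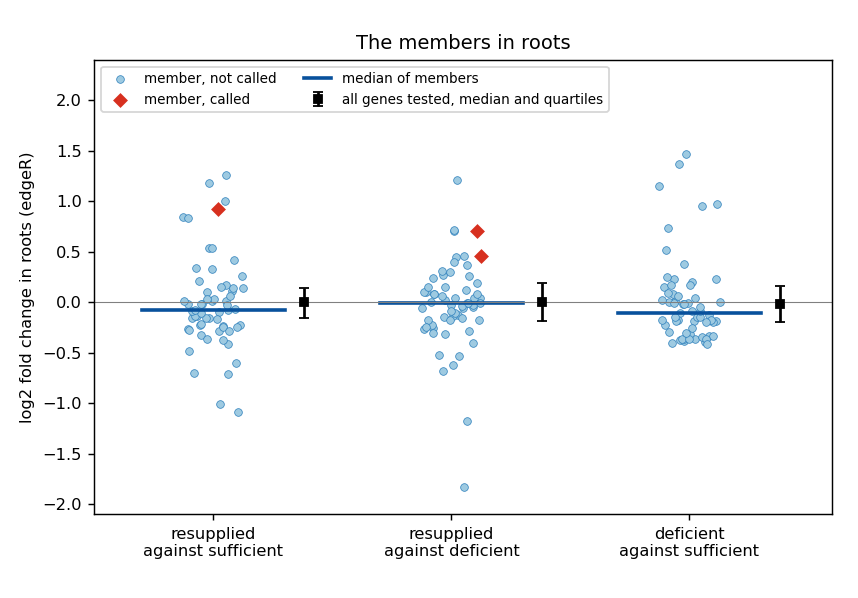
Log2 fold changes in roots of the 61 members tested (points), per comparison, with their median (line) and, beside it, the median and quartiles of all 26577 genes tested (square with bars). Diamonds mark members called at an adjusted p under 0.05: 1 in resupplied against sufficient roots and 2 in resupplied against deficient roots.

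The ratios of resupplied to other roots are not among the rule's criteria, but the resupplied root libraries did enter the choice. They did so through the root mean that has to lie below the shoot mean, and without resupplied root library 1 or 2, 64 and 62 genes met the rule. The deficient and sufficient root libraries also entered through the bound on their ratio, on which alone 47 genes failed. Both comparisons with resupplied roots are therefore partly shaped by the choice of members. Against deficient roots, 2 of the 61 rose and 0 fell, or 3.28%, where 1.79% of all genes tested rose and 1.74% fell, 3.53% in all. The count was 0 without deficient root library 1 or 2 or resupplied root library 2, and 1 without deficient library 3 or sufficient library 2 or 3. At an unadjusted p under 0.05 there were 6 higher and 2 lower, against 10.1% and 8.47% of all genes, and the median log2 fold change of the members was -0.01, where that of all genes was 0.00. Against sufficient roots, 1 of the 61 rose, where 0.64% of all genes did, and 0 fell, where 0.102% did, 0.741% in all. At an unadjusted p under 0.05 there were 3 higher and 2 lower, where 5.25% of all genes were higher and 4.57% lower, and the median log2 fold change was -0.08, against 0.00 over all genes. DESeq2 called 5 members in the first comparison, 3 of them higher, and 1 in the second, where it called 8.33% and 2.26% of the genes it tested.

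The gene called in both was Zm00004b006348, which had 62.4, 84.3 and 61.8 CPM in resupplied roots, 45.5, 39.8 and 45.5 CPM in deficient roots and 34.4, 32.9 and 42.9 CPM in sufficient roots. Every resupplied root library was above every other root library. It rose by a log2 fold change of 0.70 ± 0.14 against deficient roots (SE, edgeR adjusted p = 0.023) and 0.93 ± 0.14 against sufficient roots (SE, edgeR adjusted p = 0.015). In shoots the same gene had 494, 509 and 442 CPM in resupplied, 306, 336 and 310 CPM in deficient and 560, 524 and 525 CPM in sufficient plants, so its resupplied libraries were the highest in roots and not in shoots. In the authors' deposited tables it is higher in both, with adjusted p of 0.00011 against deficient and 1.3e-07 against sufficient roots (DESeq2). Both edgeR root calls depended on single libraries. Against deficient roots the edgeR adjusted p was 0.0754 without deficient root library 1, 0.105 without library 2 and 0.0754 without resupplied library 2. Against sufficient roots it was 0.0699 without sufficient library 1, 0.0804 without library 2 and 0.0501 without resupplied library 2.

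Zm00004b006101 rose in resupplied roots by a log2 fold change of 0.46 ± 0.11 against deficient roots (SE, edgeR adjusted p = 0.0495). It had 32.7, 38.7 and 42.4 CPM in resupplied roots, 28.9, 28.1 and 27.5 CPM in deficient roots and 36.1, 38.4 and 32.3 CPM in sufficient roots, so that the deficient roots were the low group, as in shoots. This edgeR call was at the limit: it was lost without each of the 9 root libraries except resupplied library 1, at adjusted p of 0.0509 to 0.157, and under 5 of 8 other settings, at 0.0506 to 0.0983. The authors' deposited tables have it higher in resupplied than in deficient roots, with an adjusted p of 0.0115 (DESeq2). They also have it lower in deficient than in sufficient roots, at 0.0399.

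Among members of at least 1 CPM in roots, the lowest log2 fold change on resupply was that of Zm00004b006758, which edgeR called in neither comparison; DESeq2 called it against deficient roots, at an adjusted p of 0.0481. It had 1.252, 1.42 and 0.838 CPM in resupplied roots, 3.64, 2.78 and 1.71 CPM in deficient roots and 1.48, 2.16 and 3.48 CPM in sufficient roots. Its log2 fold changes were -1.18 ± 0.38 against deficient roots and -1.01 ± 0.38 against sufficient roots (SE). In shoots it ran the other way between the same groups, with 6.87, 7.03 and 7.22 CPM in resupplied plants and 3.81, 3.09 and 4.17 CPM in deficient plants.

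Without overlap between groups of 3 libraries, 6 of the 49 members of at least 1 CPM in roots were higher in resupplied than in deficient roots, or 12.2%, where 10.8% of all genes of that level were. Lower were 5, or 10.2%, where 13.9% of all genes were. Against sufficient roots 2 were higher and 4 lower, or 4.08 and 8.16%, where 8.11% and 7.62% of all genes were.

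**Figure D5:**
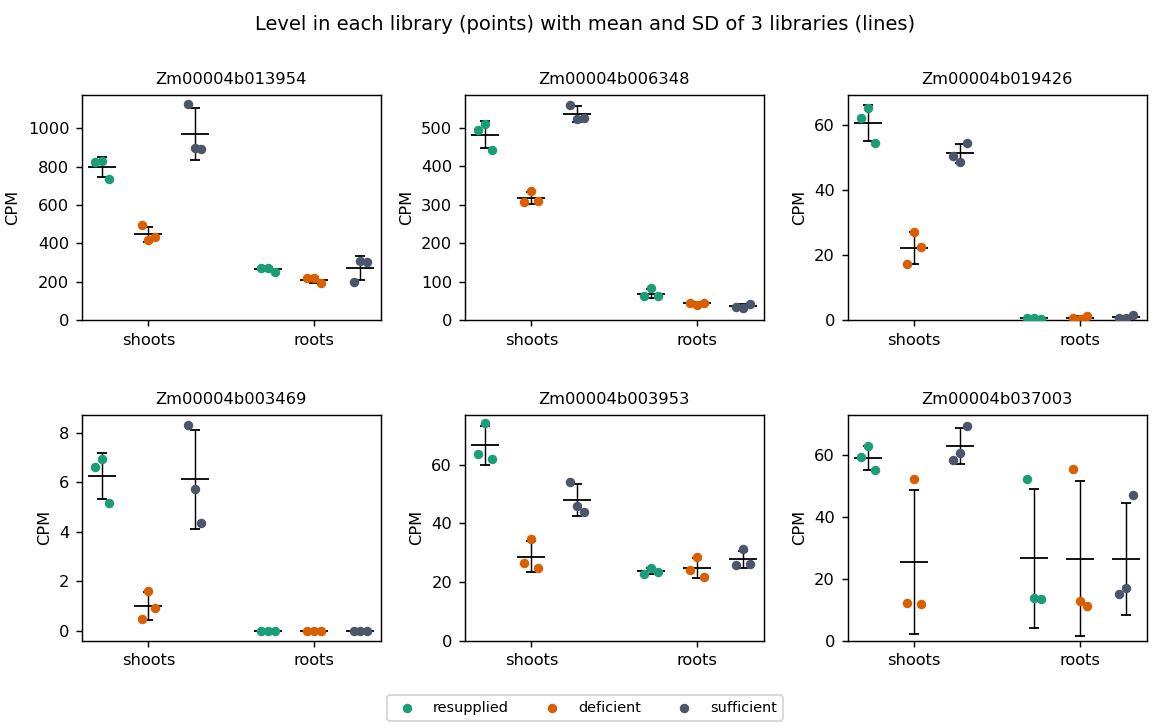
CPM of 6 members in each library (points) with the mean and SD of 3 libraries (lines), in shoots and roots. Zm00004b006348 is highest in resupplied roots, Zm00004b003469 is listed at 0 in every root library, and Zm00004b037003 takes high values near 47 to 69 CPM or low values near 11 to 17 CPM in both organs.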

How the data were processed

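For each of the 18 libraries the authors deposited estimated counts of 40690 W22 genes, all of them whole numbers. Trim Galore, HISAT2, StringTie and DESeq2 are named, with no version, in the submitters' processing notes, and the genome build is not stated in any source used here. Of values from 1 to 40, 29.3 to 33.0% were multiples of 4, where 25% would be if all these values were equally frequent. Counts may therefore overstate fragments, and counts divided by 4 were tried. From 6 further deposited tables, 1 for each comparison the authors made, the log2 fold changes and adjusted p-values were used, named so per the file headers.

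CPM were computed with edgeR 4.0.16 (R 4.3.3) after TMM scaling over all 18 libraries. Tests used edgeR's quasi-likelihood F-test, TMM, filterByExpr and Benjamini-Hochberg adjustment over all genes tested, with the 9 libraries of an organ in 1 fit and the group as its only term. Each standard error is the log2 fold change divided by the square root of F. The steps were tested on simulated counts. DESeq2 1.42.0 was an alternative. The members and lists were chosen with earlier results of these data known. The naming rule took the 2 most abundant members, the 2 with the largest ratio of resupplied to deficient shoots, the 2 highest and 2 lowest ratios of resupplied to sufficient shoots and, in roots, the 2 strongest calls per direction or, with none, the largest change, at a mean of at least 1 CPM. Other names were chosen after their values were seen. Gene lists by symbol could not be used, since 0 identifiers matched the name table. Sequences were not used here.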

Additional observations from a re-analysis of the deposited data

Results flagged for a closer look

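In 3 members with a root mean of at least 1 CPM, every deficient root library lay above every sufficient root library. In shoots every deficient library of these members lay below every sufficient one. They are 6.12% of the 49 members of at least 1 CPM in roots, where 12.2% of all genes of that level had deficient roots above sufficient roots in this way. The difference between organs was not tested, since the rule fixed the direction in shoots. For Zm00004b038055 the log2 fold change in deficient against sufficient roots was 1.15, with the values given above. For Zm00004b017890 it was 0.52, with 6.32, 7.45 and 5.77 CPM in deficient roots and 3.86, 4.93 and 4.59 CPM in sufficient roots. For Zm00004b033411 it was 0.25, with 3.70, 2.90 and 2.84 CPM in deficient roots and 2.74, 2.58 and 2.48 CPM in sufficient roots. The edgeR adjusted p of these root changes was 0.104, 0.257 and 0.639. Below 1 CPM in roots, Zm00004b036737 also had no overlap, with 1.14, 0.468 and 1.12 CPM in deficient roots and 0.348, 0.170 and 0.451 CPM in sufficient roots. Its log2 fold change there was 1.47, which edgeR did not call (edgeR adjusted p = 0.260).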

How the results depend on the processing

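The number of genes that meet the rule was 63. It was 23 with total-count scaling, 70 with median-of-ratios scaling, 54 with TMM within each organ, 248 and 5 with fold thresholds of 1.3 and 2, 76 and 37 with level minimums of 1 and 20 CPM, 63 and 67 with pseudocounts of 0 and 1, and 56 to 92 without 1 library. In shoots, members called in deficiency numbered 47 to 60 over 8 other settings and 44 to 54 without 1 library, and on resupply against deficiency 57 to 61 and 49 to 59. Between resupplied and sufficient shoots, 3 members were called, 6 with DESeq2, 5 with a replicate block and 0 to 5 without 1 library. In deficient roots 0 were called, 1 with DESeq2 and 0 to 1 without 1 library. On resupply against deficiency in roots 2 were called, 5 with DESeq2, 1 each with median-of-ratios or total-count scaling, with no filter and with the 6 libraries compared only, 0 with a replicate block and 0 to 2 without 1 library. Against sufficient roots 1 was called, and 0 to 1 without 1 library. The cause of these moves was not tested.

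The members' summed share of counts in deficient shoots was 60.4% of that in sufficient shoots, or 53.5% as CPM on the TMM scale. In resupplied shoots it was 166.4% of the deficient share, 174.9% as CPM and 174.5% without the 10 most abundant members, and 100.5% of the sufficient share, 93.5% as CPM and 108.9% without those 10.

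Same-numbered libraries did not deviate together: correlations of their deviations from the group means were -0.11 to 0.12 in shoots and -0.08 to 0.05 in roots, and 3 of 9 shoot and 2 of 9 root libraries correlated best with their own number. With the replicate block, 59 members were called in deficient against sufficient shoots and 61 in resupplied against deficient shoots, and Zm00004b006348 in resupplied against deficient roots had an adjusted p of 0.056 (edgeR). Members under 1 CPM in roots, 14 of 63, are the least precise there.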
